A study of Mus musculus with 4 samples.

Results

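The genes described here are 46 mouse genes of DNA replication and S phase, taken as a list by gene symbol and set against each other in Mmp14 knockout and wild-type skeletal stem cells. A gene was represented by the brightest of its microarray probe sets, judged by the mean over all 4 arrays, among probe sets annotated with that symbol alone. Of the 46 genes, 44 had such a probe set, out of 22180 genes measured in this way on the arrays. Rfc4 and Ccne2 were annotated only together with other symbols and have no value. Another 2 genes, Orc1 and Gins1, had means below 2.34 log2, the median of all probe sets, and were measured but not tested. That left 42 genes of the list among 12708 tested genes. Fen1 passed this level only through the wild-type arrays (mean 2.14 log2 in knockout, 2.68 log2 in wild type).

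Chromosome replication begins when the origin recognition complex, CDC6 and CDT1 load the ring-shaped MCM2-7 helicase onto DNA during G1. At the start of S phase, MCM10, CDC45 and the GINS complex turn the loaded rings into active helicases, and polymerases copy the separated strands with the help of the PCNA clamp. Most of these genes are known targets of E2F transcription factors, and their transcripts rise as cells leave quiescence and approach S phase.

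The samples were 2 arrays of Mmp14-/- skeletal stem cells and 2 arrays of Mmp14+/+ skeletal stem cells. Cells of both genotypes came from mice aged 4 to 6 weeks and spent 48 h in 3D collagen gel, and 10 ng of RNA per sample was amplified for an Affymetrix array. Mmp14 encodes MT1-MMP, a membrane-anchored protease that cuts collagen. The deleted part of the gene, the sorting markers and whether replicates were separate animals are not given in the sources used here, so p-values may measure only technical spread.

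The targeted gene, Mmp14, read 5.77 and 5.84 log2 in the knockout arrays, against 8.77 and 8.83 log2 in the wild-type arrays (limma adjusted p = 0.000278), as the labels have it. All 15 measured stromal markers lay above the median level, among them Vim, Col1a1 and Col1a2, and 4 of the 15 were called: Lepr was lower (-2.26 log2), and Pdgfra (1.77), Cxcl12 (1.81) and Nt5e (1.095) were higher. The leukocyte marker Ptprc, the endothelial marker Pecam1 and the erythroid factor Klf1 lay at or below 2.43 log2 on every array, but 4 of 16 leukocyte markers (Cd68, Lyz2, Csf1r and Cd14), 4 of 6 erythroid and megakaryocyte markers (Tfrc, Epor, Itga2b and Gp9) and 1 of 8 endothelial markers (Vwf) had means above the median level. So had 2 of 6 osteoclast markers (Acp5 and Mmp9) and 4 of 8 muscle and neural markers (Acta1, S100b, Des and Tubb3). Mmp9 was called higher in knockout (0.76, limma adjusted p = 0.0189), and Acp5 (-0.56) and S100b (1.02) were not called. Summed linear signal of the 16 measured leukocyte markers was 6.30 and 6.45 log2 in knockout, against 6.54 and 6.46 log2 in wild type. That of 6 erythroid and megakaryocyte markers was 5.32 and 5.43, against 5.65 and 5.56. Tfrc, the brightest of these, weighs most in that sum, with 3.65 and 3.99 log2 in knockout, against 4.60 and 4.32 in wild type. It was not called. Itga2b was higher on both knockout arrays without a call, and Epor and Gp9 overlapped. The 6 osteoclast markers summed to 5.90 and 5.99, against 5.99 and 6.23. The 8 endothelial markers summed to 4.95 and 4.87 log2 in knockout, against 4.82 and 4.94 in wild type, the 8 muscle and neural markers to 6.85 and 7.18, against 6.77 and 6.50, and the 15 stromal markers, a sum in which Vim and collagen genes weigh most, to 13.64 and 13.63, against 13.61 and 13.62. The X-inactivation transcript Xist was higher in knockout (9.30 and 9.09 log2, against 8.45 and 8.48 in wild type) and the Y-linked gene Eif2s3y lower (5.19 and 5.40, against 6.18 and 5.79). The part of these shifts in the results below was not tested.

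Part of the replication machinery was expressed at lower levels in knockout cells, and no gene of the list was called higher. Of the 42 tested genes, 10 fell, 0 rose and 32 were not called, where a call is a limma p below 0.05 after Benjamini-Hochberg adjustment over all 12708 genes. Of all 12708 tested genes, 651 (5.12%) were called lower and 788 higher. Without Fen1, whose knockout mean lay below the level for testing, 9 of 41 were called. The called genes were Rrm2, Ccne1, Tk1, Mcm6, Dut, Cdc45, Rpa1, Rrm1, Fen1 and Pole, and their knockout levels were between 49.0% (Rrm2) and 70.2% (Pole) of wild type. Without the level for testing, 7 of the 44 measured genes were called lower, against 2.2% of 22180 genes, and Tk1, Rrm1 and Fen1 were not. The list's median difference was -0.31 log2, against -0.0041 for all tested genes. In bulk RNA, fewer cells in S phase and less of each transcript per cell cannot be told apart.

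**Figure D1:**
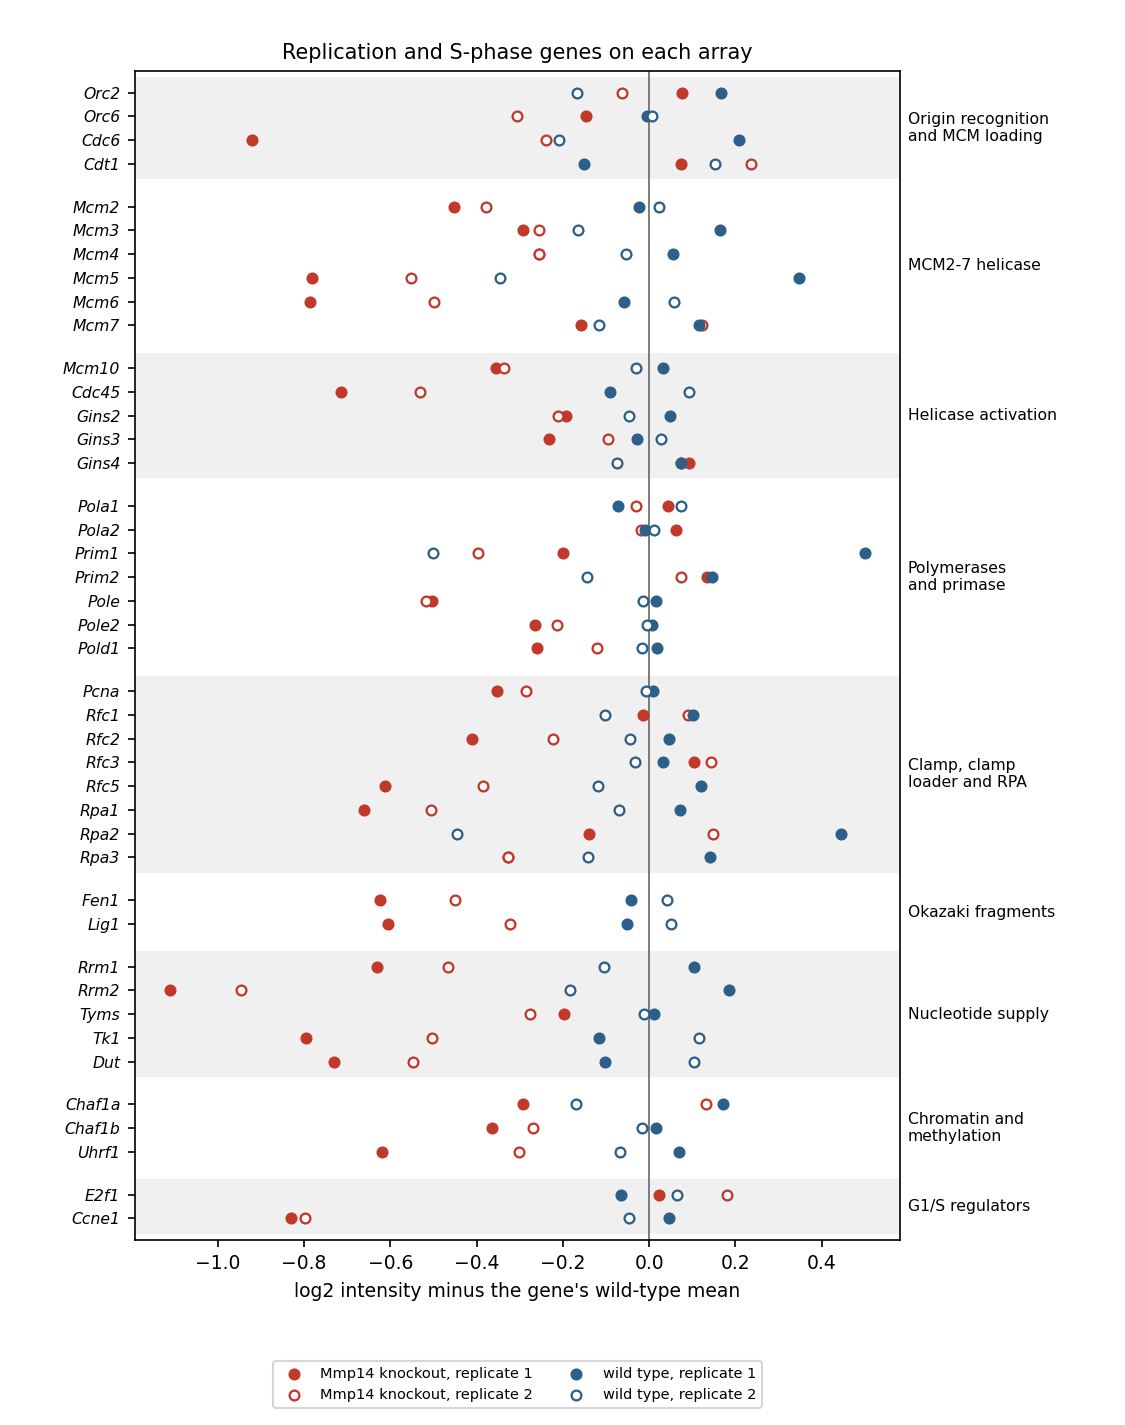
Log2 intensity of the 42 tested replication and S-phase genes on each array, as the difference from the gene's wild-type mean (x axis, log2), with genes in rows by role. Red points are Mmp14 knockout and blue points wild-type arrays, filled for replicate 1 and open for replicate 2. In 29 genes both red points lie left of both blue points, and in 1 gene, Rfc3, both lie to the right.

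At an unadjusted limma p below 0.05, 21 of the 42 genes were lower and 0 higher, against 13.5% of all tested genes lower at that level. Both knockout arrays lay below both wild-type arrays in 29 genes of the list, above them in 1 gene and overlapped in 12. Among all 12708 tested genes, 3782 (29.8%) had both knockout arrays below and 3564 had both above. With 2 arrays a group, the smallest p that an exact permutation test over arrays can give is 0.333, so calls rest on the variance shared across genes.

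Of the genes that supply DNA precursors, 4 of 5 were called lower and all 5 were below both wild-type arrays on each knockout array. Rrm2 encodes the small subunit of ribonucleotide reductase, the enzyme that makes deoxyribonucleotides. It read 3.58 and 3.75 log2 in the knockout arrays, against 4.88 and 4.51 log2 in the wild-type arrays. The groups did not overlap, and the fall of 1.03 log2 (SE 0.153, limma adjusted p = 0.0124) was the largest of the 42 tested genes. A second, very dim probe set of Rrm2 (mean 1.44 log2) gave -0.31. Rrm1, the large subunit of the same enzyme, read 6.51 and 6.67 log2 in knockout, against 7.24 and 7.03 log2 in wild type (difference -0.55, SE 0.125, limma adjusted p = 0.0447). Tk1, thymidine kinase of the salvage route, had 3.77 and 4.06 log2 in knockout, against 4.45 and 4.68 log2 in wild type (-0.65, SE 0.146, limma adjusted p = 0.0427). Both genes were thus lower on each knockout array than on either wild-type array. Dut, whose enzyme removes dUTP and so keeps uracil out of DNA, had 4.02 and 4.20 log2 in knockout, against 4.65 and 4.85 log2 in wild type (-0.64, SE 0.127, limma adjusted p = 0.0299). Its second probe set, dim at 1.75 log2, gave 0.20, and the mean of both ended the call (-0.22, limma adjusted p = 0.234). Tyms, thymidylate synthase, was not called, with 4.82 and 4.74 log2 in knockout, against 5.03 and 5.01 log2 in wild type (-0.24, 95% interval -0.49 to 0.01). Rrm2 was called without any single array. Tk1 was not called without knockout replicate 1 (limma adjusted p = 0.179), wild type replicate 1 (0.0537) or wild type replicate 2 (0.129), nor Dut without knockout replicate 1 (0.141), knockout replicate 2 (0.0523) or wild type replicate 2 (0.095), and Rrm1 lost its call without any one of the arrays (knockout replicates 1 and 2 0.206 and 0.0808, wild type replicates 1 and 2 0.118 and 0.0567).

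Of the tested regulators of S-phase entry, Ccne1 fell and E2f1 was not called. Ccne1 encodes cyclin E1, the partner of CDK2 at the G1/S boundary. It read 3.14 and 3.17 log2 in knockout, against 4.02 and 3.92 log2 in wild type, a fall of 0.81 log2 (SE 0.103, limma adjusted p = 0.00745) that was called without any single array. The gap between the groups was wider than the gap between replicates of either. E2f1, an activating E2F factor, was not called and overlapped between groups, with 4.31 and 4.47 log2 in knockout, against 4.22 and 4.35 log2 in wild type. Its difference was 0.10 log2 with a 95% interval of -0.18 to 0.38.

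Genes that recognize origins and load the helicase gave 0 calls among 4 tested, with a median difference of -0.11 log2. Cdc6, an ATPase of the loading reaction, had 2.45 and 3.14 log2 in knockout, against 3.58 and 3.17 log2 in wild type. Replicates of each genotype lay far apart, and the difference of -0.58 log2 carried an SE of 0.251. It was called without knockout replicate 2 (-0.92, limma adjusted p = 0.0465). Cdt1, the MCM loading partner of CDC6, had 4.43 and 4.59 log2 in knockout, against 4.20 and 4.50 log2 in wild type, and the groups overlapped. Orc2 and Orc6, subunits of the origin recognition complex, had differences of 0.01 (95% interval -0.35 to 0.36) and -0.23 (-0.50 to 0.04). Orc1 was dim, with means of 1.84 ± 0.0026 log2 in knockout and 2.02 ± 0.022 log2 in wild type (SD, n = 2 each).

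All 6 MCM2-7 helicase genes had differences below 0, with a median of -0.35 log2, but 1 was called, Mcm6. It read 4.32 and 4.61 log2 in knockout, against 5.05 and 5.16 log2 in wild type, and fell by 0.64 log2 (SE 0.133, limma adjusted p = 0.0344). The call was lost without knockout replicate 1 (limma adjusted p = 0.153), wild type replicate 1 (0.0654) or wild type replicate 2 (0.107). Mcm5 had a difference of the same size, -0.67 log2, with 3.97 and 4.20 log2 in knockout, against 5.10 and 4.41 log2 in wild type. Its wild-type arrays differed from each other by more than the nearer one differed from knockout (SE 0.233), and it was called without wild type replicate 2 (-1.01, limma adjusted p = 0.0235). Mcm2 read 4.65 and 4.72 log2 in knockout, against 5.08 and 5.12 log2 in wild type (-0.42, 95% interval -0.67 to -0.17, limma adjusted p = 0.0547), just short of a call. Mcm3 (-0.27) and Mcm4 (-0.26) were lower on both knockout arrays without a call. Mcm7 had overlapping groups, at 5.64 and 5.93 log2 in knockout, against 5.92 and 5.69 log2 in wild type (-0.02, 95% interval -0.37 to 0.34).

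Of the 10 called genes, those other than Pole had a promoter window to search for TTTCCCGC and TTTGGCGC, 2 forms of E2F site. Other forms were not searched. Among these 9 genes, Mcm6 was the one whose window held TTTCCCGC or TTTGGCGC, and it is printed for that reason. It is the RefSeq window of GRCm38.p6 from 250 bases before to 50 after the gene's start, chr1:128359656-128359955 on the minus strand, 5′ to 3′ in the gene's direction. Capitals mark TTTGGCGC, which begins at positions -110 and -47 from the start.
Mcm6: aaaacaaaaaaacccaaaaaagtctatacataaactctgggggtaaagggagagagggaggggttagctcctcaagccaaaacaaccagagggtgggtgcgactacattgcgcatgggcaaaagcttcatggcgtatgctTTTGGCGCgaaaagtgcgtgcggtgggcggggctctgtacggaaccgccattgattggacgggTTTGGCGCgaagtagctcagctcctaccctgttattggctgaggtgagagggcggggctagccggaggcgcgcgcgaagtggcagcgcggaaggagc

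Among genes that activate the loaded helicase, Cdc45 fell and the other 4 tested genes were not called. Cdc45 encodes the protein that travels with MCM2-7 and GINS in the working helicase. It read 3.15 and 3.33 log2 in knockout, against 3.77 and 3.95 log2 in wild type (-0.62, SE 0.124, limma adjusted p = 0.0298). The groups did not overlap, yet the call was lost without knockout replicate 1 (limma adjusted p = 0.144), knockout replicate 2 (0.053) or wild type replicate 2 (0.0956). Mcm10, a loader of CDC45, had 3.07 and 3.09 log2 in knockout, against 3.45 and 3.39 log2 in wild type (-0.35, 95% interval -0.59 to -0.10, limma adjusted p = 0.0842). The GINS genes differed less, at -0.20 for Gins2, -0.16 for Gins3 and 0.08 for Gins4, with intervals that include 0. Gins1 was dim, with 1.85 and 1.99 log2 in knockout, against 2.22 and 1.90 log2 in wild type.

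The Cdc45 window is shown because it holds TTTGAA, the letters of the cell cycle homology element of late cell cycle promoters, on each strand. It lies at chr16:18811923-18812222 of GRCm38.p6, minus strand. Capitals mark these letters, which begin at position -240 from the start and, as their reverse complement, at position 11. On either strand, TTTGAA occurred in 20.2% of all genes with a window.
Cdc45: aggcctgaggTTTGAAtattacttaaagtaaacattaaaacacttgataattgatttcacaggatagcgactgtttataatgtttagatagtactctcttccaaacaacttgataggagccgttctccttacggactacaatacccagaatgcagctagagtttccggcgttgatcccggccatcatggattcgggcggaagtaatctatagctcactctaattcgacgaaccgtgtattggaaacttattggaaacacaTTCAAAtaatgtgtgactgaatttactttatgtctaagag

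Of 7 tested polymerase and primase genes, 1 fell. Pole, the catalytic subunit of the leading-strand polymerase epsilon, read 3.25 and 3.23 log2 in knockout, against 3.77 and 3.74 log2 in wild type, a fall of 0.51 log2 (SE 0.0997, limma adjusted p = 0.0278). Replicates were close, but the call was lost without any one of the arrays (knockout replicates 1 and 2 0.133 and 0.121, wild type replicates 1 and 2 0.0731 and 0.072, limma adjusted p). Its dim second probe set (1.72 log2) gave 0.07, and the mean of both ended the call (-0.22, limma adjusted p = 0.225). The epsilon subunit gene Pole2 (-0.24) and the delta catalytic gene Pold1 (-0.19) were lower on both knockout arrays and were not called. For the primase-polymerase alpha complex, which lays down the primers, the groups overlapped in all 4 genes: Pola1 had a difference of 0.01 (95% interval -0.26 to 0.28), Pola2 of 0.02 (-0.23 to 0.27) and Prim2 of 0.10 (-0.22 to 0.43). Prim1 rested on 1 array, with 4.39 and 4.20 log2 in knockout, against 5.10 and 4.09 log2 in wild type, so its difference was -0.80 without wild type replicate 2 (limma adjusted p = 0.0390) and 0.20 without wild type replicate 1 (0.431).

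Of the clamp, clamp loader and single-strand binding genes, 1 of 8 tested fell. Rpa1, the large subunit of replication protein A, which coats single-stranded DNA, read 6.28 and 6.44 log2 in knockout, against 7.01 and 6.87 log2 in wild type (-0.58, SE 0.116, limma adjusted p = 0.0299). Leaving out any one of the arrays ended the call (knockout replicates 1 and 2 0.153 and 0.0621, wild type replicates 1 and 2 0.0858 and 0.0551, limma adjusted p), and a second probe set at 1.71 log2 gave -0.02. The mean of both probe sets also ended it (-0.30, limma adjusted p = 0.148). Of the other subunits, Rpa3 read 5.41 and 5.42 log2 in knockout, against 5.88 and 5.60 log2 in wild type, and Rpa2 was 4.02 and 4.31 in knockout, against 4.61 and 3.72 in wild type. Rpa2 thus had its highest and its lowest value in wild type. The second probe set of Rpa3, bright at 4.36 log2, gave -0.52, against -0.33 for the brightest one. Pcna, the sliding clamp that holds polymerases on DNA, had 6.37 and 6.44 log2 in knockout, against 6.73 and 6.71 log2 in wild type (-0.32, 95% interval -0.57 to -0.07, limma adjusted p = 0.104). Among the loader subunits, Rfc5 (-0.50) and Rfc2 (-0.32) were lower on both knockout arrays, Rfc3 (0.12) was higher on both and Rfc1 (0.04) overlapped. None of these 4 was called.

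Fen1 encodes the flap nuclease that trims Okazaki fragments and Lig1 the ligase that seals them. Fen1 read 2.05 and 2.22 log2 in knockout, against 2.63 and 2.72 log2 in wild type (-0.54, SE 0.114, limma adjusted p = 0.0362). It was tested only because its wild-type level was high enough, and with no level for testing it was not called (limma adjusted p = 0.0564). Its values lay near the array medians (2.32 to 2.37 log2), and the call was lost without any one of the arrays (knockout replicates 1 and 2 0.189 and 0.068, wild type replicates 1 and 2 0.069 and 0.107, limma adjusted p). A second probe set, at 1.98 log2, gave 0.10. Lig1 had 4.55 and 4.83 log2 in knockout, against 5.10 and 5.20 log2 in wild type (-0.46, SE 0.132, limma adjusted p = 0.0792), lower on both arrays without a call. The Fen1 window, printed as the third called gene with a motif match, lies at chr19:10204344-10204643 of GRCm38.p6, minus strand. Capitals mark the reverse complement of TTTGAA, which begins at position -124 from the start. It is 1 of 2 windows RefSeq gives for this gene.
Fen1: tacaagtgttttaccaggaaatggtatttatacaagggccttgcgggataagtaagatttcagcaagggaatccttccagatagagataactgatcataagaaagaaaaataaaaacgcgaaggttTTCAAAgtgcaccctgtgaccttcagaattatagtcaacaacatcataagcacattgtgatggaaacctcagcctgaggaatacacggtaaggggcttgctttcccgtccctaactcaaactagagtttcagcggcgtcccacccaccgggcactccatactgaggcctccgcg

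The genes that rebuild chromatin behind the fork gave 0 calls among 3. Uhrf1, which recruits the maintenance methyltransferase to newly copied DNA, had 3.62 and 3.94 log2 in knockout, against 4.31 and 4.18 log2 in wild type (-0.46, 95% interval -0.81 to -0.12, limma adjusted p = 0.0941). Chaf1b, a subunit of chromatin assembly factor 1, had 4.69 and 4.79 log2 in knockout, against 5.07 and 5.04 log2 in wild type (-0.32, limma adjusted p = 0.111). Its partner Chaf1a overlapped between groups (-0.08, 95% interval -0.54 to 0.37).

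**Figure D2:**
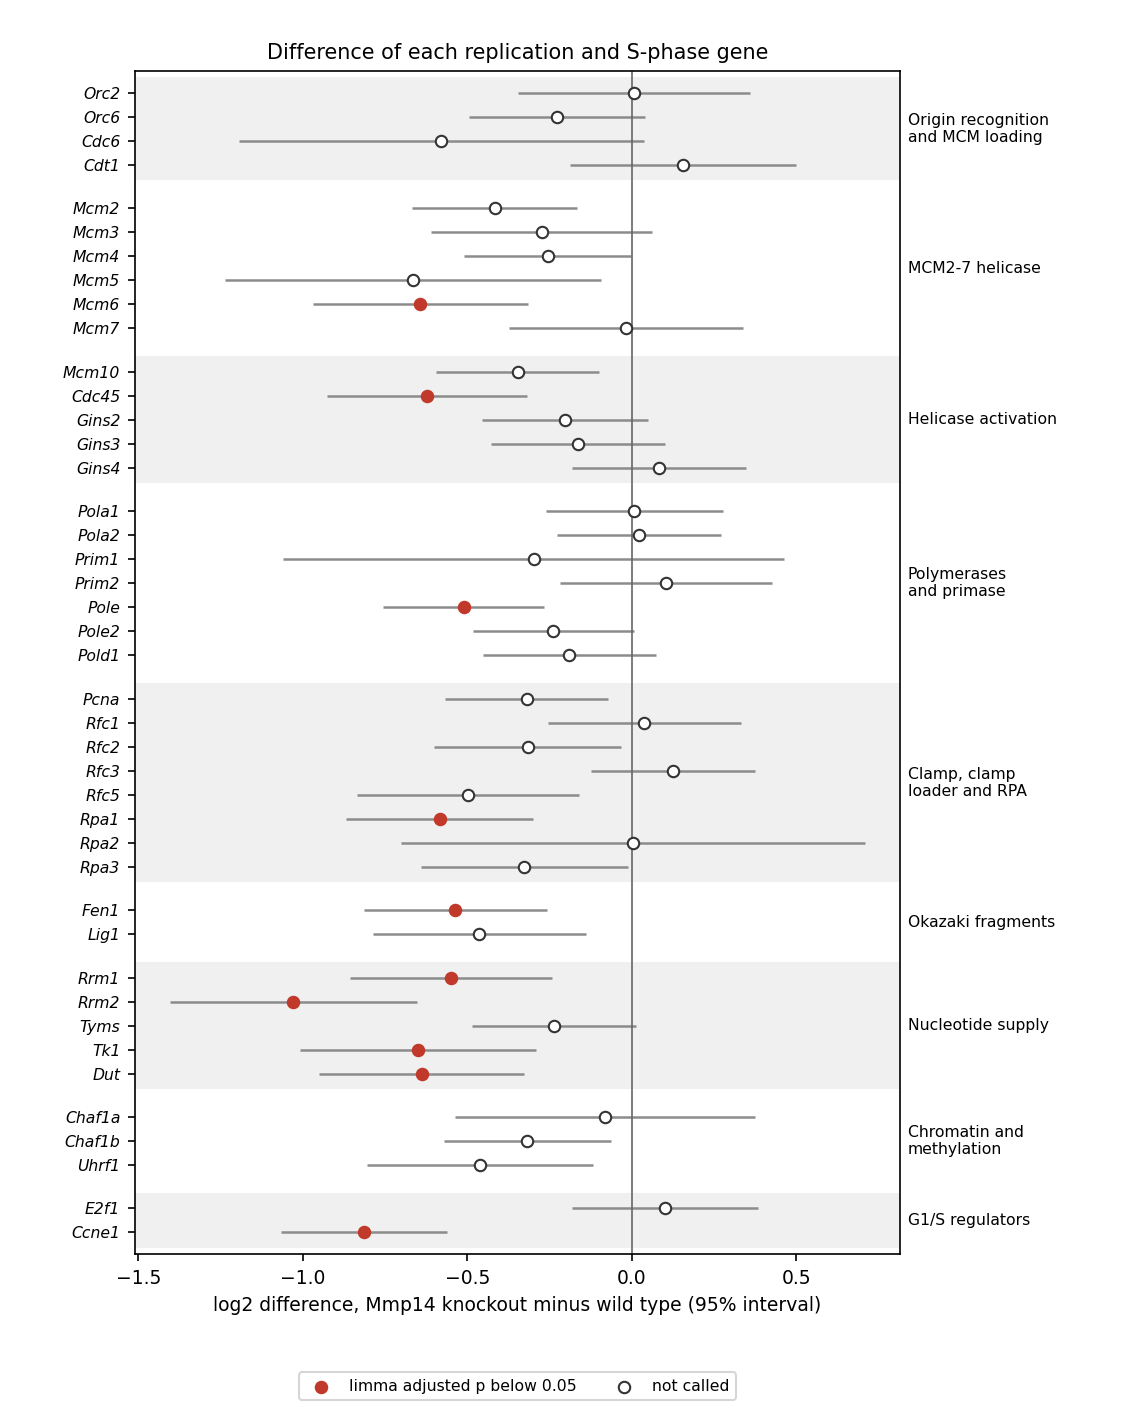
Log2 difference, Mmp14 knockout minus wild type (x axis), of the 42 tested genes in rows by role, with 95% limma intervals that are not adjusted for the number of genes. Red points mark the 10 called genes, 4 of which supply nucleotides, and open points the other 32. The intervals of 21 genes lie below 0 and none lies above.

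The promoters of the list were searched for the letters of E2F sites and of the cell cycle homology element. RefSeq windows of 300 bases were at hand for 38 of the 46 genes. On either strand, TTTCCCGC or TTTGGCGC, with a gene counted once however its matches overlapped, occurred in 11 of the 38 (28.9%), against 1.8% of 27025 genes with a window. They occurred in 1 of 9 called genes with a window, the Mcm6 window printed above, and in 10 of 27 genes that were tested and not called. Those 10 were Mcm3, Mcm5, Mcm7, Rfc3, Pold1, Gins3, Cdt1, Cdc6, Pole2 and Pola1, with differences between -0.67 (Mcm5) and 0.16 (Cdt1). TTTGAA occurred in 4 of the 38 (10.5%), namely Cdc45, Fen1, Mcm2 and Gins3, against 20.2% of all genes with a window. By call, it occurred in 2 of 9 called genes (22.2%) and in 2 of 27 tested and not called (7.41%). A match is a run of letters and not a measured site. A window without a match may hold other forms of these sites, which were not searched.

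Other cell cycle lists were counted by the same rule, against 5.12% of all tested genes called lower, and the counts of 2 calls below rest on few genes. With no level for testing, 2.2% of 22180 genes were called lower. Further fork genes then gave 1 call of 32, near that share. The nucleotide and chromatin, E2F and checkpoint lists gave 1 of 16, 1 of 18 and 1 of 22. Among the genes named below, calls lost there were Top2a (limma adjusted p = 0.0514), Pold2 (0.0565), Pole3 (0.0578), Dck (0.0565), Mybl2 (0.0702) and Exo1 (0.0593). Of the named mitosis genes, Nuf2 (0.0503) lost its call there, and 10 of 23 mitosis genes were called. Of 30 tested fork and origin genes outside the list, 5 fell, 0 rose and 25 were not called, with a median of -0.05 log2. Clspn, the checkpoint mediator claspin at the fork, read 3.02 and 3.13 log2 in knockout, against 4.02 and 3.89 log2 in wild type (-0.88, limma adjusted p = 0.00726). Top2a, the topoisomerase that untangles sister chromatids, fell by 0.74, the delta subunit gene Pold2 by 0.58 and the epsilon subunit gene Pole3 by 0.52 (limma adjusted p = 0.0365, 0.0375 and 0.0365). Clspn was called without any single array. Top2a was not called without knockout replicate 1 (limma adjusted p = 0.137), knockout replicate 2 (0.0548) or wild type replicate 1 (0.0805), Pold2 without knockout replicate 1 (0.184), wild type replicate 1 (0.0914) or 2 (0.0989), and Pole3 without any one of the arrays (knockout replicates 1 and 2 0.148 and 0.127, wild type replicates 1 and 2 0.098 and 0.0508). Of 16 further nucleotide and chromatin genes, 2 fell and 14 were not called (median -0.06). The histone chaperone gene Asf1b fell by 0.93 (limma adjusted p = 0.00604) and the deoxycytidine kinase gene Dck by 0.59 (0.0375), Dck without a call when knockout replicate 1 (0.182), wild type replicate 1 (0.0973) or wild type replicate 2 (0.0925) was left out.

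Of 17 E2F and pocket protein genes, 2 fell, 0 rose and 15 were not called (median -0.27). E2f7, a repressive E2F factor, read 2.88 and 2.97 log2 in knockout, against 3.70 and 3.82 log2 in wild type (-0.83, limma adjusted p = 0.00809). Mybl2, the B-MYB factor that follows E2F in the cell cycle, fell by 0.65 (limma adjusted p = 0.0484), but was not called with the mean of its probe sets (-0.24, 0.230) or without knockout replicate 1 (0.188), knockout replicate 2 (0.0651) or wild type replicate 1 (0.116). Of 20 checkpoint and homologous repair genes, 2 fell and 18 were not called (median -0.13). Brca1 fell by 0.58 (limma adjusted p = 0.0206) and the exonuclease gene Exo1 by 0.59 (0.0393). Brca1 was not called without knockout replicate 1 (limma adjusted p = 0.117), knockout replicate 2 (0.0674) or wild type replicate 2 (0.0685), nor Exo1 without knockout replicate 1 (0.187), wild type replicate 1 (0.0812) or wild type replicate 2 (0.112).

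Among 24 cyclins, kinases and inhibitors at G1/S, 4 fell, 1 rose and 19 were not called (median -0.17). Ccna2, cyclin A2 of S and G2 phases, read 4.89 and 5.04 log2 in knockout, against 6.11 and 5.99 log2 in wild type (-1.08, limma adjusted p = 0.00409). Of the CDK inhibitor genes, Cdkn1c, which encodes p57, rose by 1.23 (limma adjusted p = 0.00243) and Cdkn2b, which encodes p15, fell by 1.34 (0.00531), while Cdkn1a (-0.19), Cdkn1b (0.32), Cdkn2a (-0.19), Cdkn2c (-0.19) and Cdkn2d (-0.38) were not called. Cks2, a small CDK-binding protein gene, fell by 1.23 (limma adjusted p = 0.00707). Ccna2, Cdkn1c, Cdkn2b and Cks2 were each called whichever array was left out. The other gene that fell, Ccnd1 (-0.53, limma adjusted p = 0.0304), lost its call when any array was left out.

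Of 23 tested mitosis genes, 12 fell, 0 rose and 11 were not called, with a median of -0.74 log2, against 10 of 42 and -0.31 for the replication list. Whether these 2 lists differ was not tested. Aurka, a spindle pole kinase, read 3.31 and 3.76 log2 in knockout, against 4.79 and 4.70 log2 in wild type, and Ccnb2, a mitotic cyclin, read 4.53 and 4.72 log2 in knockout, against 5.71 and 5.59 log2 in wild type. Their differences of -1.21 and -1.03 (limma adjusted p = 0.00982 and 0.00557) were called without any single array. Plk1 fell by 1.12 and the kinetochore gene Nuf2 by 1.07 (limma adjusted p = 0.0262 and 0.0381), Plk1 without a call when knockout replicate 1 (0.0711) or wild type replicate 1 (0.0696) was left out, and Nuf2 when knockout replicate 1 (0.0664), wild type replicate 1 (0.111) or wild type replicate 2 (0.079) was. The mitosis count was 5 without knockout replicate 1, and that of the further fork genes was 1 to 2 without any one of the arrays. Further nucleotide and chromatin genes gave 1 call without knockout replicate 1, wild type replicate 1 or wild type replicate 2, E2F and pocket protein genes 1 without knockout replicate 1, knockout replicate 2 or wild type replicate 1, and checkpoint genes 0 without knockout replicate 1 and 1 without each other array.

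**Figure D3:**
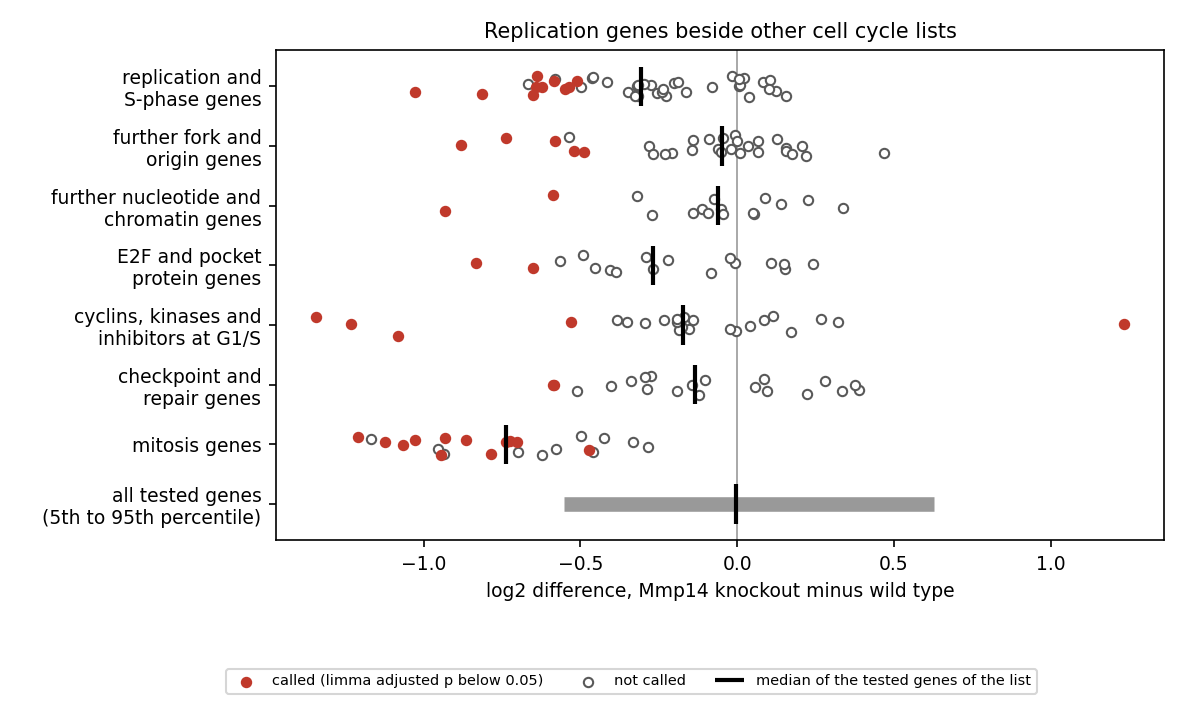
Log2 difference, Mmp14 knockout minus wild type (x axis), of each tested gene in the replication list and 6 other cell cycle lists (rows, with points spread vertically for clarity). Red points are called genes, open points are not called and black bars are medians, while the grey bar spans the 5th to 95th percentile of all tested genes (-0.55 to 0.63). The replication list's median lies at -0.31 and that of mitosis genes at -0.74.

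How firmly each replication gene can be called depended on the arrays used. Rrm2 and Ccne1 were called whichever array was left out, while the number of called genes of the list was 2 without knockout replicate 1, 5 without knockout replicate 2 and 4 without either wild-type replicate. The list's median difference ranged from -0.37 without wild type replicate 2 to -0.23 without wild type replicate 1. When every probe set of the arrays entered 1 limma fit, 0 of 44 genes were called, with 17 lower and 0 higher at an unadjusted p below 0.05, and the smallest adjusted p was 0.0795, for Ccne1.

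**Figure D4:**
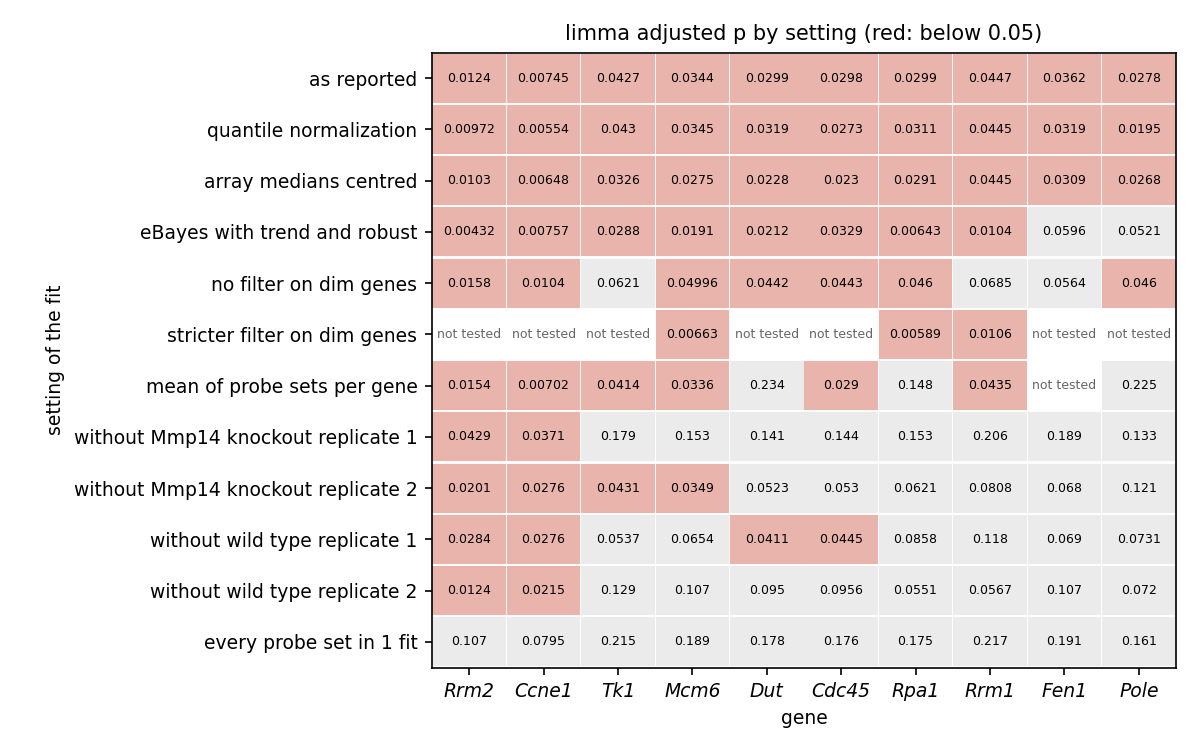
Limma adjusted p of the 10 called replication genes (columns, by size of fall) as reported and under other settings of the fit (rows). The fit with a replicate block is not shown, and in it Pole, Rpa1, Fen1 and Rrm1 were not called. Red cells are below 0.05, grey cells are not, and "not tested" marks a gene below that setting's level. Rrm2 and Ccne1 stay red in each row that leaves out an array, and no cell is red when every probe set enters 1 fit.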

How the data were processed

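The values used were the deposited log2 intensities of 41345 Affymetrix probe sets on 4 arrays, as the authors processed them. Per the submitters' processing notes, the tools included oligo and limma, with no version, and the background correction and normalization are not given in the sources used here. Array medians lay between 2.32 and 2.37 log2. Probe sets with 1 gene symbol in the platform annotation numbered 23521, those with several 1814 and those without one here 16010. The brightest 1-symbol probe set stood for each gene, and a gene was tested where its 4-array mean reached 2.34 log2.

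Knockout was set against wild type with limma 3.58.1 in R 4.3.3 (lmFit and eBayes), with 2 residual and 3.99 prior degrees of freedom, Benjamini-Hochberg adjustment over 12708 genes and a threshold of 0.05. The fit was run on simulated data drawn from its own variance model with normal noise, which does not check the calls made on these arrays. The members and lists were chosen with earlier results of these data known. Every member was reported. Of each other cell cycle list, at most the 4 called genes with the largest differences were named, and in the G1/S list also Ccnd1. Marker lists were given as sums, with defining markers named after their values were seen. Alternatives were other filters, scalings, variance settings and probe set rules, a replicate block and leaving out each array. With 2 arrays a group, the number of arrays limits the precision. Promoter windows came from RefSeq, GRCm38.p6.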

Additional observations from a re-analysis of the deposited data

How the results depend on the processing

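With every probe set in 1 fit, 113 genes were higher, 75 lower and 0 members called. Trend and robust variance gave 1027 lower genes, and averaging each gene's probe sets 6 lower members. A stricter level for testing, 4.76 log2, gave 835 lower genes and 7 lower members of 18 tested. Mcm2, Pcna, Lig1 and Chaf1b, not called in the main fit, were called there. Quantile scaling gave 698 lower genes and 11 lower members of 42, with Mcm2 added. Without each array in turn, 394 to 672 genes were higher, 293 to 459 lower and 2 to 5 members lower. Same-numbered samples did not deviate together across genes (correlation -0.04). With 1 difference per genotype this does not settle whether samples were paired, and the labels state no pairing. With a replicate block 606 genes were higher, 451 lower and 6 members lower. No member was called higher in any setting run. Differences that changed sign were Orc2 (-0.020), Pola1 (-0.052) and Rpa2 (-0.022) under quantile scaling, and Orc2 (-0.015), Pola1 (-0.014) and Rpa2 (-0.017) under median centring, none of them called. Without each array in turn, 9 members changed sign, with ranges of -0.16 to 0.17 for Orc2, -0.16 to 0.12 for Mcm7, -0.065 to 0.080 for Pola1, -0.020 to 0.063 for Pola2, -0.80 to 0.20 for Prim1, -0.041 to 0.25 for Prim2, -0.064 to 0.14 for Rfc1, -0.44 to 0.45 for Rpa2 and -0.29 to 0.13 for Chaf1a. Of these, Prim1 was called, without wild type replicate 2. The cause was not tested. Dim probe sets, such as that of Fen1, limit what can be measured.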

Other observations

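Replicates of 1 genotype also differed across the replication genes. Knockout replicate 1 was above knockout replicate 2 in 10 of the 42 tested genes, with a median difference of -0.12 log2, and wild type replicate 1 was above wild type replicate 2 in 29 of the 42, with a median of 0.08 log2. Mitosis genes had the same order, with 2 of 23 genes higher in knockout replicate 1 (median -0.16) and 20 of 23 higher in wild type replicate 1 (median 0.18). Among all 12708 tested genes, 6200 were higher in knockout replicate 1 and 7188 in wild type replicate 1. The source of these differences was not tested.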
